A study of Mus musculus with 20 samples.

Results

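Among CD8 T cells infiltrating B16-OVA melanoma, a class of cells was defined by a transcript of the chemokine receptor gene Cxcr6 together with few transcripts of the chemokine genes Ccl3 and Ccl4. The gate was applied to counts of unique molecular identifiers (UMIs), each of which marks 1 captured RNA molecule. A CD8 T cell had at least 3 UMIs of Cd3d, Cd3e and Cd3g together, at least 1 of Cd8a and Cd8b1, under 5 of the macrophage genes C1qa, C1qb, C1qc and Lyz2, and under 10 of the melanocyte genes Mlana, Pmel, Dct and Tyrp1. From these, cells were taken with under 4 UMIs of the mitotic genes Mki67, Top2a, Birc5, Ube2c, Cenpf and Ccna2, no UMI of Tcf7 or Havcr2, under 10 UMIs of Ccl3 and Ccl4 together, and at least 1 UMI of Cxcr6. The gate held 869 of the 4930 CD8 T cells and of the 7398 cells kept in all. They are called Cxcr6+ Ccl-low cells below. The levels of the gate genes chose the cells, so they are given as a description and no test of them is reported. Ccr2, S100a4, Plac8 and Isg15 were proposed as markers of these cells with results of the same data known. They are given as a description too. Unlike the gate genes, these proposed markers stay in the counts of tested and called genes below.

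The study transferred OT-I CD8 T cells, whose receptor recognises an ovalbumin peptide, into mice with melanoma cells that express ovalbumin, and took the CD8+ tumour-infiltrating cells 8 days later for droplet sequencing of transcript 3′ ends. The groups were Tet2 knockout (KO) cells with anti-PD-L1, wild-type (WT) cells with anti-PD-L1, KO cells without the antibody (KO untreated) and WT cells without it (WT untreated). The KO cells came from Tet2-/- mice crossed to OT-I mice, and all groups carried the same tumour line and T cell receptor transgene. Each group was 1 library, so genotype and treatment were compared without a test, and how many mice were pooled in a library is not given in the sources used here. Another 16 samples of the series, 8 of RNA and 8 of chromatin accessibility, were not analysed here. TET2 is a dioxygenase that oxidises methylated cytosine in DNA, and anti-PD-L1 blocks a ligand of the inhibitory receptor PD-1.

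CXCR6 is the receptor of the transmembrane chemokine CXCL16, and CD8 T cells that carry it are known from tissues and tumours, where it helps them to stay near CXCL16-bearing cells. CCR2 is the receptor of CCL2 and guides cells out of blood into inflamed tissue. In tumours, CD8 T cells with the transcription factor TCF-1 (the product of Tcf7) act as a reserve that divides and gives rise to effector cells. Cells with TIM-3 (the product of Havcr2) are at the effector and exhausted end, and CCL3 and CCL4 are released soon after the T cell receptor is engaged.

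The promoters of the genes on which the comparison turns are shown so that the letters of 3 transcription factor motifs can be read beside the values. Cxcr6 is the gate gene. Against cells of the same gate without a Cxcr6 UMI, Ccr2, S100a4, S100a6 and Gzmb were higher in the Cxcr6+ Ccl-low cells, and Slamf6 and Dapl1 were lower. Against the Havcr2+ cells compared below, Gzmb was lower, and Ccr2, S100a4 and S100a6 were not called. Each runs 5′ to 3′ on the gene's own strand over 300 bases, 250 before the start site to 50 after it, from RefSeq on GRCm38.p6. Capitals mark the TCF and LEF core CTTTGA and the Runx core TGTGGT, searched on both strands, with reverse complements in capitals as well; the T-box core AGGTGT was searched too and had no match in these 7.
Cxcr6 (chr9:123806227-123806526, plus strand): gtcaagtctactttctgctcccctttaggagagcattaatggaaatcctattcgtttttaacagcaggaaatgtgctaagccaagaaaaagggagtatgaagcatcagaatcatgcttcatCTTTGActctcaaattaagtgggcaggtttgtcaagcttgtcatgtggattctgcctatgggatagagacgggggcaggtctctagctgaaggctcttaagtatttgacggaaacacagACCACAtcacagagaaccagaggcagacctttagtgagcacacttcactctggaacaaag
Ccr2 (chr9:124101933-124102232, plus strand): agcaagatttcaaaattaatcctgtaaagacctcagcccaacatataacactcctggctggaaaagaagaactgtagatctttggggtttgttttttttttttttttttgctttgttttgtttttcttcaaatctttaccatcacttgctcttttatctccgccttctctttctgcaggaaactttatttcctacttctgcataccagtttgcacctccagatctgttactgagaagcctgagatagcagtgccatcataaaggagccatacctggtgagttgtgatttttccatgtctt
S100a4 (chr3:90603520-90603819, plus strand): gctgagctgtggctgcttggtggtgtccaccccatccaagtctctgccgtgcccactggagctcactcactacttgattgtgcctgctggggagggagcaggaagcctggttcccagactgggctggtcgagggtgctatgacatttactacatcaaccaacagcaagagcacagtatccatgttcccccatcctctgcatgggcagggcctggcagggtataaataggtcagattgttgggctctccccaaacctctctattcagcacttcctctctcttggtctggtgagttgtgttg
S100a6 (chr3:90612644-90612943, plus strand): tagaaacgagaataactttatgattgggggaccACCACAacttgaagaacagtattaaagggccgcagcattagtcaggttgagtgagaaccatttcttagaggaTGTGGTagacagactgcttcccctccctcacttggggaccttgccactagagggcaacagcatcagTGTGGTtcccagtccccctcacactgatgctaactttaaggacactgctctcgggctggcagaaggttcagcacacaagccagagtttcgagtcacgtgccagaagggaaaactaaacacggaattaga
Gzmb (chr14:56262285-56262584, minus strand): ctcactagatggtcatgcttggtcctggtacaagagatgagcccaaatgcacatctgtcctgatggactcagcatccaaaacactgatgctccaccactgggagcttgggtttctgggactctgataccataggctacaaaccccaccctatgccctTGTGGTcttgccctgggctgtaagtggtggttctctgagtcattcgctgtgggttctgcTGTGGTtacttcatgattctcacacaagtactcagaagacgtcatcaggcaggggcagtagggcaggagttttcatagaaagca
Slamf6 (chr1:171917212-171917511, plus strand): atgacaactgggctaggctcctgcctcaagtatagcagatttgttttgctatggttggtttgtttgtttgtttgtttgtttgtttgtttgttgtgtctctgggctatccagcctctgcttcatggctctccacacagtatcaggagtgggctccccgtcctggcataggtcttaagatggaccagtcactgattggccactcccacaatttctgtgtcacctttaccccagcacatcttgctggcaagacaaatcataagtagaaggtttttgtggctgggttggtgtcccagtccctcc
Dapl1 (chr2:59484403-59484702, plus strand): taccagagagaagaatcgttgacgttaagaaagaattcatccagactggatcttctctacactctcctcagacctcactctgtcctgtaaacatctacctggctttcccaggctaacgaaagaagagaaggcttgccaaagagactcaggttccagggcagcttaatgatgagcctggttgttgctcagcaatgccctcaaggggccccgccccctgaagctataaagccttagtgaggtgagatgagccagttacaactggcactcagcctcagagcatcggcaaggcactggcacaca
Cxcr6 held 1 TCF and LEF core at -129 and 1 Runx core at -10 from the start site. S100a6 held 3 Runx cores, at -217, -145 and -79, and Gzmb held 2, at -93 and -34. Ccr2, S100a4, Slamf6 and Dapl1 held none of the 3 motifs in this window. For Ccr2 the window starts at 124101933 and lies wholly inside the gene, which is listed from 124101918. Its start site is thus an internal one, and the letters before the first listed base of Ccr2 were not searched. Over 32851 mouse promoters of the same length, 16.0% held the TCF and LEF core, 13.7% the T-box core and 16.8% the Runx core. A match is a description of letters and not a site of binding. Cxcr6 (chr9:123806477-123811754) lies on the same chromosome as Ccr2 (chr9:124101918-124109140), and S100a4 (chr3:90603770-90606045) on the same chromosome as its paralog S100a6 (chr3:90612894-90614414).

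The Cxcr6+ Ccl-low cells numbered 214 in KO anti-PD-L1, 318 in WT anti-PD-L1, 277 in KO untreated and 60 in WT untreated, and held 1194642, 1543515, 1064815 and 188747 UMIs. WT untreated is thus the shallowest sum by far, and its values carry the widest counting error. Their median UMI count per cell was 2968.5 to 5421.5 over the libraries, against 3937 to 7679 in the other CD8 T cells, and their median share of mitochondrial UMIs was 2.09% to 2.46%. Between 1 and 10 barcodes occurred in any pair of libraries, and 1 barcode of a Cxcr6+ Ccl-low cell did so. No Cxcr6+ Ccl-low cell had a Y-linked UMI in the KO libraries, against 15.7% of those in WT anti-PD-L1 and 10.0% in WT untreated, so any effect of the donors' sex and the genotype cannot be told apart. Tet2 itself had 10 UMIs in KO anti-PD-L1, 24 in WT anti-PD-L1, 33 in KO untreated and 2 in WT untreated. The deleted stretch of Tet2 is not stated in the labels, and the counts come from 3′ ends, so these counts check nothing about the genotype.

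Several defining markers of other lineages were absent from the gated cells, while some summed levels were not low. Of the defining genes, Ncr1 and Klra8 of NK cells, Cd79a and Ms4a1 of B cells, Flt3 and Cd209a of dendritic cells, Adgre1 of macrophages and Tyr of melanocytes were at 0 in all 869 cells. The summed level over 6 melanocyte genes was 17.6 to 74.2 CPM, the UMIs of a gene scaled to a library total of 1000000, in Cxcr6+ Ccl-low cells, against 14.6 to 94.2 in the other CD8 T cells, and it was highest in WT untreated in either class. The 10 macrophage and monocyte genes summed to 720.5 to 1931 CPM, against 549.5 to 1460, mostly Ly6c2, a gene that activated CD8 T cells express too. The 4 gamma-delta T cell genes summed to 100.7 to 308.0 CPM, against 90.4 to 207.5, and were higher in the Cxcr6+ Ccl-low cells in each library, with Trdc at a log2 fold change of 0.47 against all other CD8 T cells. Against the other non-mitotic CD8 T cells Trdc was at 0.08 and was not called. The 7 dendritic cell genes summed to 246.1 CPM in KO untreated, against 147.3 in its other CD8 T cells, and to 27.9 to 53.0 in the other 3 libraries, against 29.0 to 170.3. The 4 red blood cell genes summed to 1764 CPM in KO anti-PD-L1 and 1100 in KO untreated, nearly all from 1 cell in each, and to 37.6 in WT anti-PD-L1 and 74.2 in WT untreated. The part of these transcripts in the results was not tested. Doublets were neither called nor removed: 31 Cxcr6+ Ccl-low cells had more than 2 times the median UMI count of their library.

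The name fits the cells in part. By the gate, Ccl3 was low at 71.2 CPM in KO anti-PD-L1, 54.4 in WT anti-PD-L1, 87.3 in KO untreated and 116.6 in WT untreated, and Ccl4 at 246.9, 204.7, 312.7 and 360.3. A further chemokine gene was not low. Ccl5, which encodes a chemokine that attracts T cells and monocytes, stood at 6255 CPM in KO anti-PD-L1, 8231 in WT anti-PD-L1, 5327 in KO untreated and 1478 in WT untreated, against 3969, 4327, 1648 and 445.5 in the other CD8 T cells of the same libraries. Its level was higher than in these other cells in 4 of 4 libraries, so against them the term chemokine-low does not hold for Ccl5. Among the classes compared below, Havcr2+ cells had 9730, 10070, 7258 and 1674 CPM of Ccl5 in the same library order. Ccl-high cells, with at least 10 UMIs of Ccl3 and Ccl4, had 9231, 12640, 9918 and 2481. The Cxcr6+ Ccl-low cells stood below both classes in each library, though Ccl5 was not called against either. With cells thinned to 2200 UMIs each, 68.4% to 86.9% of the Cxcr6+ Ccl-low cells had a Ccl5 UMI, against 12.2% to 38.8% of the melanoma cells in the same libraries.

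The proposed markers differed in how well they set the cells apart. After thinning to 2200 UMIs, Ccr2 was detected in 29.0% of Cxcr6+ Ccl-low cells in KO anti-PD-L1, 30.8% in WT anti-PD-L1, 25.8% in KO untreated and 12.3% in WT untreated, against 22.3%, 18.7%, 11.3% and 4.55% of the other CD8 T cells and none of the thinned melanoma cells. S100a4, a calcium-binding protein of motile cells, was detected in 59.4%, 64.4%, 55.3% and 50.9% of Cxcr6+ Ccl-low cells of these libraries in the same order, against 47.5%, 49.1%, 26.9% and 18.2% of the other CD8 T cells and at most 2.06% of melanoma cells. Ccr2 and S100a4 were therefore found more often in the gated cells in each library, yet Ccr2 was seen in few of them in WT untreated. Plac8, an effector-cell gene that interferon also induces, was found in 69.1% to 84.6% of Cxcr6+ Ccl-low cells, against 43.1% to 70.0% of the others. Isg15, an interferon-induced ubiquitin-like protein, was found in 13.1% in KO anti-PD-L1, 12.8% in WT anti-PD-L1, 9.09% in KO untreated and 3.51% in WT untreated, against 11.1%, 10.2%, 6.90% and 3.41% of the other CD8 T cells. Melanoma cells had an Isg15 UMI in 20.4% to 33.6% of cells, so its share in the gated cells lies below that of the tumour cells and close to that of the other CD8 T cells.

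Single cells of the class carried these markers in varying number. Of 858 thinned Cxcr6+ Ccl-low cells, 81 had a UMI of none of Ccr2, S100a4, Plac8 and Isg15, 238 of 1, 350 of 2, 168 of 3 and 21 of all 4. Cells with 3 of the 4 made up 19.6% in KO anti-PD-L1, 26.3% in WT anti-PD-L1, 14.2% in KO untreated and 8.77% in WT untreated. Itgae, which encodes the integrin CD103 of many tissue-resident T cells, had a UMI in at most 0.361% of the unthinned Cxcr6+ Ccl-low cells of any library.

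**Figure D1:**
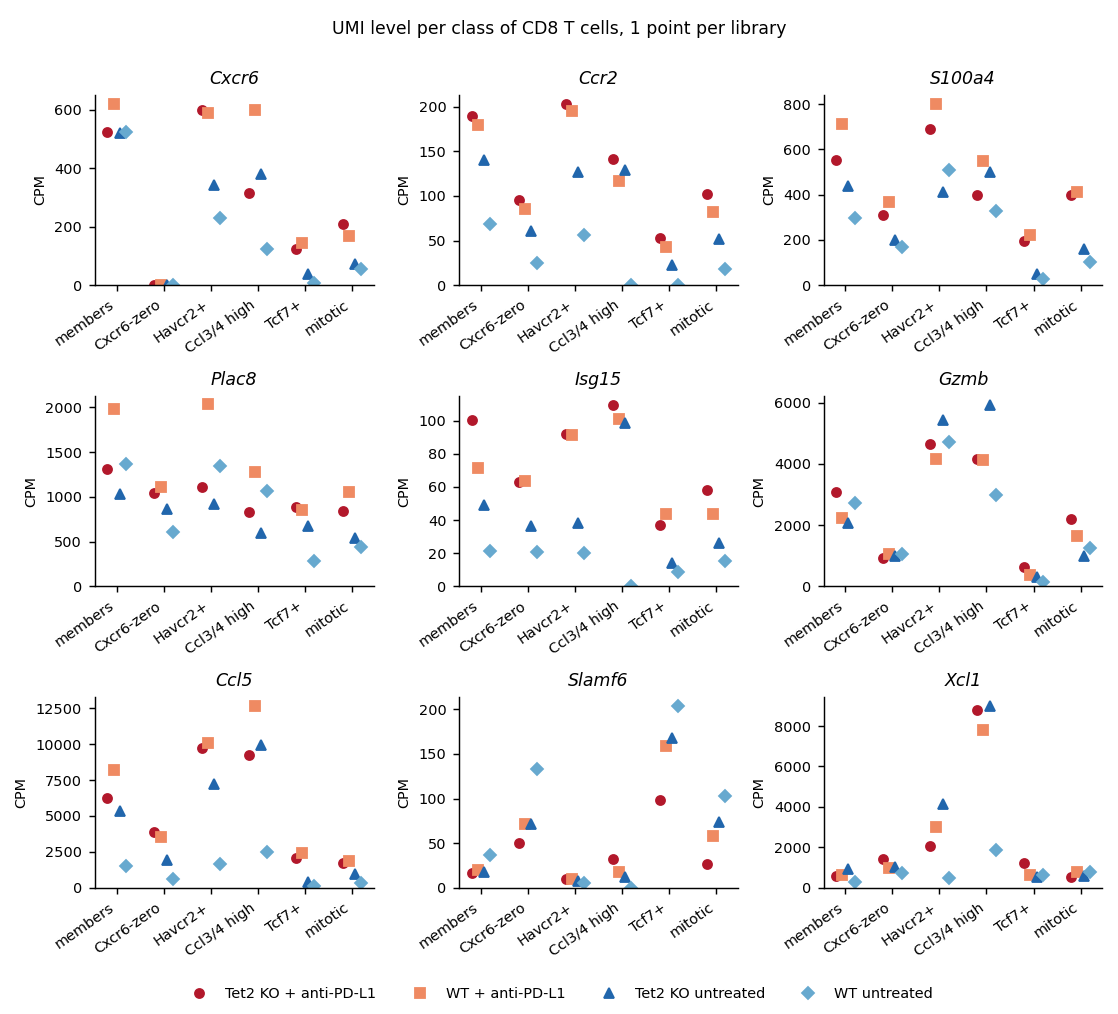
Level of 9 genes in 6 classes of CD8 T cells, in CPM on linear axes from 0, with 1 point per library; the Cxcr6+ Ccl-low cells stand at the left, marked as members. Slamf6 is lower in the Cxcr6+ Ccl-low cells than in the Tcf7+ cells in every library, and Gzmb stands between the Cxcr6-zero and the Havcr2+ cells.

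The first comparison set the Cxcr6+ Ccl-low cells against all 4061 other CD8 T cells. Genes of migration and of calcium and membrane binding were higher, with Ccl5, the interferon-gamma-induced long non-coding RNA AW112010, the galectin gene Lgals3 and the S100 genes in the lead, and genes of mitosis were lower, since mitotic cells were kept out by the gate. UMIs were summed per library and class. The edgeR quasi-likelihood test with the library as a block and Benjamini-Hochberg adjustment was fitted to 8748 genes. The 8724 of them that the gate does not use were counted, and the later counts leave out the gate genes in the same way. At an edgeR adjusted p under 0.05, 557 genes (6.38%) were higher in the Cxcr6+ Ccl-low cells and 628 (7.2%) were lower, 13.6% in all. S100a6 had 1821 CPM in KO anti-PD-L1, 2525 in WT anti-PD-L1, 1661 in KO untreated and 1489 in WT untreated, against 1232, 1565, 717.9 and 642.6 in the other CD8 T cells. The Cxcr6+ Ccl-low cells were higher in each library, with a log2 fold change of 0.93 ± 0.07 (SE, edgeR adjusted p = 2.28e-10). AW112010 had 4034, 4052, 3464 and 3995 CPM in those libraries in the same order, against 2803, 2666, 1782 and 1590, a log2 fold change of 0.86 ± 0.07 (edgeR adjusted p = 2.28e-10). Its level in the Cxcr6+ Ccl-low cells was within 3464 and 4052 CPM in all 4 libraries, while that of Ccl5 spanned 1478 to 8231. Ccl5 had a log2 fold change of 1.25 ± 0.10 (edgeR adjusted p = 2.28e-10).

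The naming rule takes only genes with the same direction in every library. The other genes of the 12 highest by this rule had log2 fold changes of 0.77 to 1.02. They were Ccr2, S100a4 and Plac8, which are description here, Lgals3, Lgals3bp, which encodes a secreted galectin-binding glycoprotein, Fgl2, an immunosuppressive fibrinogen-like protein, the transcription factor gene Cebpb, AA467197, and Gm156. Of the 12 lowest, 11 were genes of division such as Nusap1 (-3.48), Cdk1 (-2.32) and Cdc20 (-2.19), and the other was Dapl1 (-2.67), a gene of naive and memory-like T cells. With the mitotic cells left out of the other CD8 T cells, the 9 of the 12 highest that are no proposed markers kept an edgeR adjusted p under 0.05, while of the 12 lowest Dapl1 did (-2.43, edgeR adjusted p = 6.92e-07). Without the library block, 9 genes were higher and 140 lower.

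Against the other CD8 T cells that were not mitotic, the division genes dropped out and a lower set of progenitor and chemokine genes came to the front. Of 7298 genes tested, 89 (1.22%) were higher and 98 (1.34%) lower, 2.56% in all. Slamf6, a receptor that marks progenitor cells among exhausted T cells, had 15.9 CPM in KO anti-PD-L1, 19.4 in WT anti-PD-L1, 17.8 in KO untreated and 37.1 in WT untreated, against 36.1, 66.7, 85.4 and 134.3 in the other non-mitotic cells. It was lower in the Cxcr6+ Ccl-low cells in every library (log2 fold change -1.80 ± 0.16, edgeR adjusted p = 1.52e-07). Xcl1, which encodes a chemokine for cross-presenting dendritic cells, had 586.8, 605.8, 943.8 and 302.0 CPM in the same library order, against 2851, 2484, 1953 and 717.0, and was lower in every library as well (-1.71 ± 0.12, edgeR adjusted p = 3.95e-09). Id3 (-2.0), a transcriptional inhibitor of memory precursors, and Klf2 (-0.97), which drives genes of exit from tissue, were lower by the same test. Ifng and Ccl9 were lower too (-1.47 and -2.03), but not in every library: Ifng stood at 233.1 CPM in Cxcr6+ Ccl-low cells of WT untreated, against 175.9 in the other non-mitotic cells there. Tcf7+ and Ccl-high cells are among these other cells by the gate, and what part they have in each fold change is shown by the comparisons class by class.

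Higher against the non-mitotic cells were Gzmk, a granzyme of early effector and memory cells (log2 fold change 1.16 ± 0.18, edgeR adjusted p = 0.000631), Anxa1 (0.70), S100a6 (0.59), S100a4 (0.59), S100a11 (0.48) and Itgb1 (0.49), the shared chain of integrins that bind extracellular matrix. Of these, S100a4 is a proposed marker and is given as description. Itgb1 had 204.2 CPM in KO anti-PD-L1, 220.9 in WT anti-PD-L1, 220.7 in KO untreated and 222.5 in WT untreated, against 151.1, 150.4, 149.7 and 173.2. These Itgb1 levels were close to each other across the libraries of each class, and the classes did not overlap. Ccl5 had a log2 fold change of 0.49 ± 0.12 (edgeR adjusted p = 0.0227) but stood below the other non-mitotic cells in KO anti-PD-L1, at 6255 against 7261 CPM. Gzmb, the main granzyme of killer cells, was not called (0.23, edgeR adjusted p = 0.287), with 3086, 2235, 2088 and 2729 CPM in the 4 libraries in order, against 3222, 2361, 1881 and 1305.

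By gene list, the S100, annexin and galectin genes were the most uniform. Against all other CD8 T cells 15 of 16 were higher and none lower (median log2 fold change 0.41, against 0.00 over all genes), and against the non-mitotic ones 9 of 16 were higher and none lower (median 0.25, against -0.01). The interferon list had 18 of 30 genes higher and none lower against all others, among them Isg20 (0.78) and Gbp2 (0.74), and 4 of 29 against the non-mitotic cells. The 4 were Plac8, Gbp4 (0.47), Ifi27l2a (0.36) and Ly6a (0.27). The counts by list, here and below, include any proposed marker on the list (S100a4, Plac8, Isg15 or Ccr2), and that entry is description only. The cytotoxic list had 14 of 19 higher and 1 lower (Gzmc) against all others, and 4 of 19 higher against the non-mitotic cells. Progenitor and memory genes were 3 higher and 6 lower of 17 against all others and 0 higher and 6 lower against the non-mitotic cells. The cell cycle list went from 22 of 27 lower against all others to 0 of 26 in either direction against the non-mitotic cells by edgeR, with a median of 0.03 and with 1 higher and 3 lower at an unadjusted p under 0.05. Inhibitory receptors were 4 of 15 higher against all others, Pdcd1 (0.54), Lag3 (0.58), Ctla4 (0.53) and Entpd1 (0.85), but 1 higher (Ctla4, 0.32) and 1 lower (Cd200, -0.86) of 13 against the non-mitotic cells.

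The closest comparison was with the 810 cells that passed the same gate but had no Cxcr6 UMI, here called Cxcr6-zero cells. The Cxcr6+ Ccl-low cells had more Gzmb, Ccl5, Ccr2, Lgals3 and S100a4, and less Dapl1 and Slamf6. At the depth of these libraries a cell with 0 Cxcr6 UMIs is not shown to lack the transcript. Median UMI counts of the classes were close, at 5421.5 against 4886 in KO anti-PD-L1, 4425 against 4400 in WT anti-PD-L1, 3463 against 3447 in KO untreated and 2968.5 against 2921 in WT untreated. All classes were fitted together as 24 sums of 4 libraries and 6 classes, and the same sums of the Cxcr6+ Ccl-low cells enter every contrast of that fit. Of 6790 genes, 56 (0.825%) were higher in the Cxcr6+ Ccl-low cells and 37 (0.545%) were lower, 1.37% in all. Without WT anti-PD-L1 the counts were 4 higher and 4 lower.

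Gzmb had 3086 CPM in KO anti-PD-L1, 2235 in WT anti-PD-L1, 2088 in KO untreated and 2729 in WT untreated, against 944.6, 1050, 987.5 and 1043 in the Cxcr6-zero cells. Neither class varied by as much as the gap between them, and the log2 fold change was 1.28 ± 0.20 (edgeR adjusted p = 0.000508). It stayed called when any 1 library was left out, but not without the library block (edgeR adjusted p = 0.118, within a range of 3.19e-66 to 0.118 over 11 alternatives). Ccl5 was higher in every library, at 6255, 8231, 5327 and 1478 CPM in order, against 3857, 3519, 1917 and 593.9 (1.16 ± 0.22, edgeR adjusted p = 0.00415). The groups of libraries overlapped for Ccl5 because WT untreated was low in both classes, and without WT anti-PD-L1 its edgeR adjusted p was 0.0736, within a range of 4.16e-70 to 0.947 over 11 alternatives. Lgals3 had 667.1, 1074, 649.9 and 498.0 CPM against 309.1, 534.2, 359.1 and 205.7 (1.02 ± 0.17, edgeR adjusted p = 0.000685). Dusp5, a phosphatase induced by MAP kinase signalling, Rgs16, a regulator of chemokine receptor signalling, and Fgl2 completed the 8 highest, at 0.89, 0.87 and 0.87. For description, Ccr2 had 190.0, 179.5, 139.9 and 68.9 CPM against 95.8, 85.2, 60.4 and 24.6, and S100a4 had 551.6, 710.7, 438.6 and 296.7 against 309.1, 366.3, 200.9 and 168.2.

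Slamf6 had 15.9 CPM in KO anti-PD-L1, 19.4 in WT anti-PD-L1, 17.8 in KO untreated and 37.1 in WT untreated, against 50.1, 71.8, 72.0 and 133.3 in the Cxcr6-zero cells. The libraries of the classes did not overlap (log2 fold change -1.90 ± 0.25, edgeR adjusted p = 3.21e-05). Slamf6 was called under each of 11 alternatives, at -2.08 to -1.48. Dapl1 had 7.53, 9.72, 1.88 and 116.6 CPM against 10.9, 105.9, 37.3 and 302.7 (-2.46 ± 0.38, edgeR adjusted p = 0.000359), so its level in Cxcr6+ Ccl-low cells of WT untreated exceeded that of Cxcr6-zero cells in the other 3 libraries. It lost its call without WT anti-PD-L1. Others of the 8 lowest were 2310001H17Rik, Izumo1r, which encodes the folate receptor 4 protein, Ikzf2, a transcription factor of regulatory and tumour-specific dysfunctional T cells, Slc29a1, a nucleoside transporter, and Smc4, a condensin subunit, at -0.93 to -0.74.

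**Figure D2:**
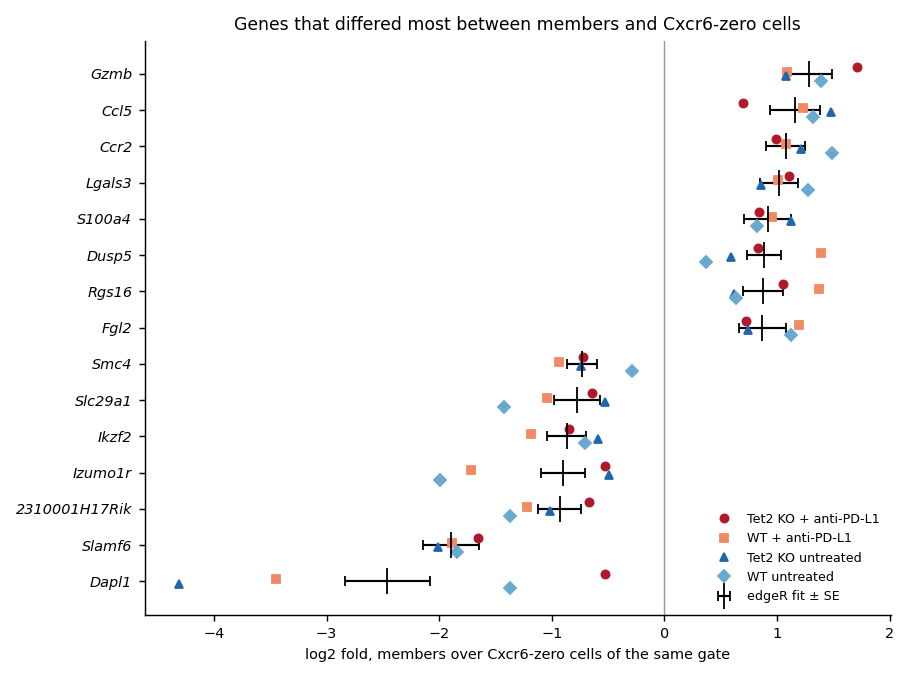
Log2 fold change of 15 genes named by the rule in Cxcr6+ Ccl-low cells (members) over Cxcr6-zero cells, with bars of 1 SE from the edgeR fit and 1 small point per library. The rule names only genes with the same direction in every library, so all library points lie on the side of their gene's fold change by selection. Gzmb is the highest at 1.28 and Dapl1 the lowest at -2.46.

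Across lists, the edgeR calls against the Cxcr6-zero cells fell in a few lists. S100, annexin and galectin genes had 9 of 16 higher and none lower (median log2 fold change 0.43, against -0.01 over all genes), led by Anxa1 (1.33 ± 0.30, edgeR adjusted p = 0.0139), a protein that limits inflammation. Cytotoxic genes had 5 of 19 higher and none lower, and they were Gzmb, Gzmk (1.59), Ctsd (0.67), Serpinb9 (0.59), the inhibitor that protects a killer cell from its own granzyme B, and Klrc1 (0.48). Tissue homing genes had 5 of 20 higher, among them Ccr2, Rgs16, Rgs1 (0.65) and Rgs2 (0.61), and 2 lower, among them Ccr7 (-0.66), the receptor that leads to lymph nodes. Progenitor genes had 5 of 17 lower, with Id3 at -1.92, and none higher. Only 1 of 27 interferon genes was higher, Ly6a (0.50), and none lower; Isg15 stood at 0.36 and Plac8 at 0.61. Of the 24 activation genes of T cell receptor signalling, 1 was higher, Dusp5. Il2rb (0.67), the IL-2 and IL-15 receptor chain, and Pim1 (0.66) were higher of the 19 genes around the IL-2 and IL-7 receptors. No cell cycle gene of 27 was called by edgeR or DESeq2 (median -0.11, with 2 lower at an unadjusted p under 0.05). DESeq2 called more in other lists: 12 of 18 ribosomal protein genes lower, where edgeR called 1, 6 of 20 actin and adhesion genes higher, where edgeR called 3, and 3 of 14 genes of MHC class I presentation higher, where edgeR called 0 and 3 had an unadjusted p under 0.05.

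Within the same gate, levels went with the number of Cxcr6 UMIs. As the split uses the gate gene, these are descriptions. Gzmb had 944.6 CPM in cells with 0 Cxcr6 UMIs, 1945 with 1, 3081 with 2 or 3 and 4127 with 4 or more in KO anti-PD-L1. In WT anti-PD-L1 these bins had 1050, 1456, 2366 and 2710, and in KO untreated 987.5, 1727, 2216 and 3186. WT untreated had 1043, 2237, 3683 and 3163, the last from 3 cells. The order of the bins was thus the same in 3 libraries. Ccl5 stood higher in each further bin in all 4 libraries, from 0 to 4 or more UMIs at 3857, 4285, 6621 and 7639 CPM in KO anti-PD-L1 and at 593.9, 1151, 1952 and 2919 in WT untreated. Slamf6 was highest in the 0 bin of every library, at 50.1 to 133.3 CPM, and cells with 1 Cxcr6 UMI, just inside the gate, already had 19.5 in KO anti-PD-L1, 29.6 in WT anti-PD-L1, 27.1 in KO untreated and 57.6 in WT untreated. Median UMI counts of the bins were 4776 to 5667 in KO anti-PD-L1, 4052 to 4638 in WT anti-PD-L1, 3192 to 3532 in KO untreated and 2703 to 3079 in WT untreated, so depth differed little across them.

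**Figure D3:**
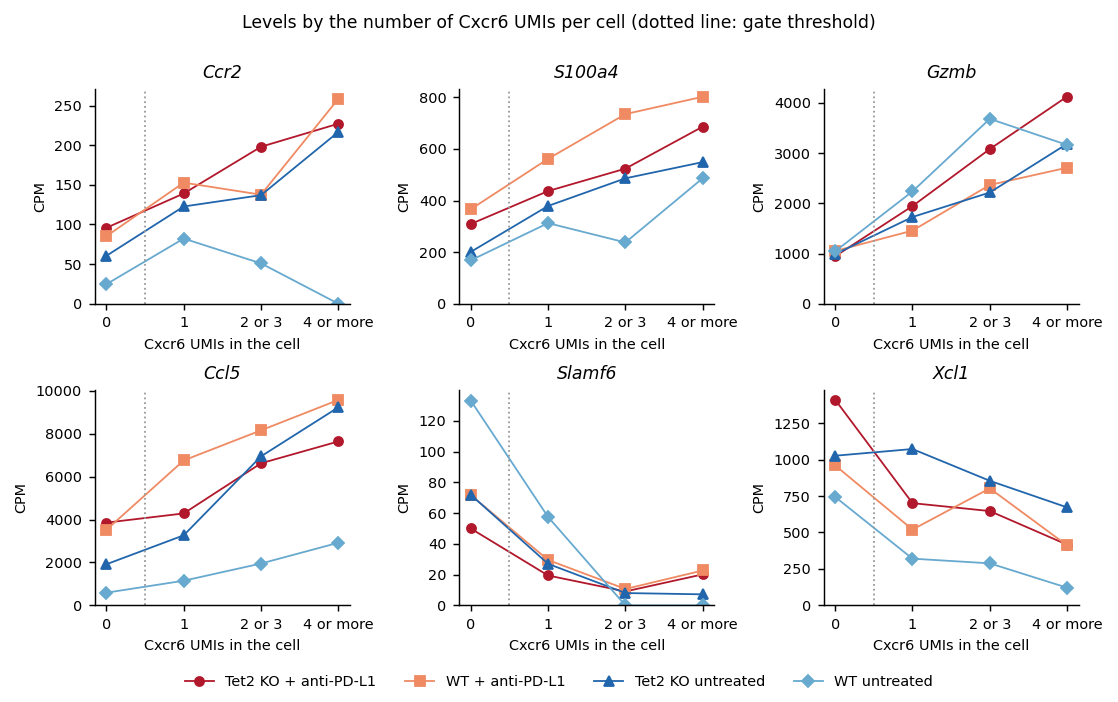
Level of Ccr2, S100a4, Gzmb, Ccl5, Slamf6 and Xcl1 in CPM by the number of Cxcr6 UMIs per cell (0, 1, 2 or 3, 4 or more), with 1 line per library and a dotted line at the gate. Gzmb and Ccl5 stand lowest in the 0 bin and Slamf6 highest in every library; the last bin of WT untreated holds 3 cells.

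The other threshold, of 10 UMIs of Ccl3 and Ccl4 together, cuts through a thin tail. Of the Cxcr6+ cells under it, 456 had none, 279 had 1 to 3, 77 had 4 to 6 and 57 had 7 to 9, and just outside it 28 had 10 to 12. Cells just inside, with 7 to 9, had 3392 CPM of Gzmb, 1105 of Xcl1 and 379 of Ifng pooled over libraries. Those just outside, with 10 to 12, had 4340, 1256 and 405. The far side was another matter: the 93 cells with 21 or more had 8395 CPM of Xcl1 and 2372 of Ifng. Cells with none had 2025 of Gzmb, 480.8 of Xcl1 and 99.5 of Ifng.

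Against the 545 Tcf7+ cells the differences were broad and large. Of the cytotoxic genes 15 of 19 and of the cytokine and chemokine genes 3 of 11 were higher in the Cxcr6+ Ccl-low cells, and 9 of 17 progenitor and 14 of 18 ribosomal protein genes were lower. Of the 6790 genes, 300 (4.42%) were higher and 289 (4.26%) lower, 8.67% in all. Gzmb had 3086 CPM in KO anti-PD-L1, 2235 in WT anti-PD-L1, 2088 in KO untreated and 2729 in WT untreated, against 624.0, 377.0, 296.5 and 146.2 in the Tcf7+ cells (log2 fold change 2.80 ± 0.22, edgeR adjusted p = 1.67e-10). Gzma (2.80), Ccl5 (2.36), Ifitm3 (2.12), which encodes a membrane protein that blocks virus entry, Ccl1 (3.21) and Gzmc (3.64) were also among the 8 highest, beside Ccr2 and S100a4. Gzmc rested on few cells, with 60 UMIs in 7 Cxcr6+ Ccl-low cells of WT untreated, of which 1 cell held 26. Prf1, the pore-forming perforin, was higher as well (2.33). Ccr2 had no UMI in the Tcf7+ cells of WT untreated.

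Slamf6 had 15.9 CPM in KO anti-PD-L1, 19.4 in WT anti-PD-L1, 17.8 in KO untreated and 37.1 in WT untreated, against 98.1, 158.5, 168.4 and 203.4 in the Tcf7+ cells. All libraries of the Cxcr6+ Ccl-low cells lay far below all libraries of the Tcf7+ cells (-2.91 ± 0.23, edgeR adjusted p = 1.5e-10). Others of the 8 lowest were Dapl1 (-3.73), Klf2 (-1.81), Izumo1r (-1.44), Marcksl1 (-1.48), Rgs10 (-1.34) and 2310001H17Rik (-1.53). Progenitor genes were 9 of 17 lower and none higher, with Id3 at -2.88 and Lef1, a partner of TCF-1, at -1.32. Of 18 ribosomal protein genes 14 were lower and none higher, with a small median of -0.25, against -0.03 over all genes. Cytotoxic genes were 15 of 19 higher, S100, annexin and galectin genes 11 of 16, activation genes 10 of 24 with 1 lower (Cd83, -1.49), and actin and adhesion genes 10 of 20 with 1 lower (Tmsb10, -0.32). Inhibitory receptor and exhaustion genes split: Pdcd1 (0.66), Lag3 (0.47), Ctla4 (0.65) and Cd244 (1.28) were among 5 of 13 that were higher, and Tox (-0.77), Nfatc1 (-0.67) and Cd200 (-1.44) were lower.

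Against the 580 Havcr2+ cells few genes were called, and those lower included 4 of 19 cytotoxic and 2 of 11 cytokine and chemokine genes. Of 6790 genes, 12 (0.177%) were higher in the Cxcr6+ Ccl-low cells and 25 (0.368%) were lower, 0.545% in all. Ifng had 195.9 CPM in KO anti-PD-L1, 114.7 in WT anti-PD-L1, 204.7 in KO untreated and 233.1 in WT untreated, against 721.2, 1051, 1314 and 699.1 in the Havcr2+ cells. The classes did not overlap (log2 fold change -2.51 ± 0.28, edgeR adjusted p = 4.54e-07), and the call held under each of 11 alternatives. Xcl1 had 586.8, 605.8, 943.8 and 302.0 CPM against 2043, 2985, 4138 and 489.9 (-1.90 ± 0.33, edgeR adjusted p = 0.00199), lower in each library although WT untreated was low in both classes. Gzmb had 3086, 2235, 2088 and 2729 CPM against 4665, 4152, 5435 and 4715, without overlap (-0.90 ± 0.20, edgeR adjusted p = 0.0312). It was thus in between the Cxcr6-zero and the Havcr2+ cells, higher than the one and lower than the other. The others of the 8 lowest were Gzmc (-1.84), Gzma (-1.48), Zbtb32 (-1.32), a repressor induced on activation, Srm (-0.90), which makes spermidine, and Pno1 (-0.75), which takes part in ribosome assembly. Prf1 was at -1.57 and called as well. DESeq2 called 1 of the 19 cytotoxic genes lower, against 4 by edgeR.

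The 8 highest against the Havcr2+ cells were modest. They were Pdcd4, a translation inhibitor (0.90 ± 0.19, edgeR adjusted p = 0.0246), Ighm (0.71), Itgb1 (0.60), the actin regulator Evl (0.47), the mitophagy receptor Bnip3l (0.45), Ly6e (0.37), Cox7a2l (0.32) and Eif3f (0.26). Itgb1 had 204.2 CPM in KO anti-PD-L1, 220.9 in WT anti-PD-L1, 220.7 in KO untreated and 222.5 in WT untreated, against 149.4, 156.7, 150.5 and 97.0. Each of the 4 Cxcr6+ Ccl-low sums was above all those of the Havcr2+ cells. Without KO untreated, without KO anti-PD-L1 or without WT anti-PD-L1, edgeR called 0 genes higher. At an unadjusted edgeR p under 0.05, 250 of 6917, 268 of 6870 and 217 of 6188 genes were higher in that order. DESeq2 on all libraries called 46.

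Other gene groups that stood out against the other classes were not called against the Havcr2+ cells. Of the 16 S100, annexin and galectin genes none was called in either direction by edgeR or DESeq2 (median -0.05, against 0.02 over all genes), with 3 lower at an unadjusted p under 0.05. Of 13 inhibitory receptor genes none was called by edgeR or DESeq2 either, with 1 lower at an unadjusted p under 0.05, and Pdcd1 stood at 0.03 and Lag3 at -0.03. Cxcr6 itself, which the gate fixes in one class and not in the other, had 525.7 CPM in Cxcr6+ Ccl-low cells of KO anti-PD-L1, 620.7 in WT anti-PD-L1, 519.3 in KO untreated and 524.5 in WT untreated, beside 599.1, 590.2, 341.6 and 229.6 in the Havcr2+ cells. Ccr2 had 190.0, 179.5, 139.9 and 68.9 CPM, beside 203.1, 195.0, 126.6 and 56.1 in the Havcr2+ cells. S100a4 had 551.6, 710.7, 438.6 and 296.7 CPM, beside 689.6, 802.2, 410.9 and 510.3 in the Havcr2+ cells. A missed threshold does not show that the classes were alike, and a cell without a Havcr2 UMI is not shown to lack the transcript.

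The 232 Ccl-high cells, which lack Tcf7 and Havcr2 UMIs and have at least 10 UMIs of Ccl3 and Ccl4, differed among others in genes that T cell receptor engagement induces. Of 6790 genes, 231 (3.4%) were higher in the Cxcr6+ Ccl-low cells and 310 (4.57%) were lower, 7.97% in all. Xcl1 had 586.8 CPM in KO anti-PD-L1, 605.8 in WT anti-PD-L1, 943.8 in KO untreated and 302.0 in WT untreated, against 8773, 7796, 8987 and 1866 in the Ccl-high cells (log2 fold change -3.42 ± 0.35, edgeR adjusted p = 5.02e-08). Ifng had 195.9, 114.7, 204.7 and 233.1 CPM against 2807, 979.3, 887.6 and 635.7 (-2.91 ± 0.29, edgeR adjusted p = 3.62e-08). Ccl9 (-3.80), Crtam (-1.75), an adhesion receptor induced on activation, Zbtb32 (-1.75), Marcksl1 (-1.76), Ppan (-1.45) and Pou2f2 (-1.44) completed the 8 lowest. Of 24 activation genes 12 were lower and 1 higher (median -0.57, against 0.05 over all genes), with Myc at -1.82, Nfkbid at -1.55 and Irf4 at -1.48; the 1 higher was Crem (0.53). Cytokines were 6 of 11 lower, with Tnf at -2.34 and Ccl1 at -2.05. Higher were Commd7 (1.01), Bnip3l (0.97), Igbp1 (0.94), Nsmce1 (0.94), Pkp3 (0.90), Hmha1 (0.86), H2afv (0.85) and Gyg (0.84), and by list 7 of 20 actin and adhesion genes and 5 of 14 genes of MHC class I presentation, with none lower in either list.

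**Figure D4:**
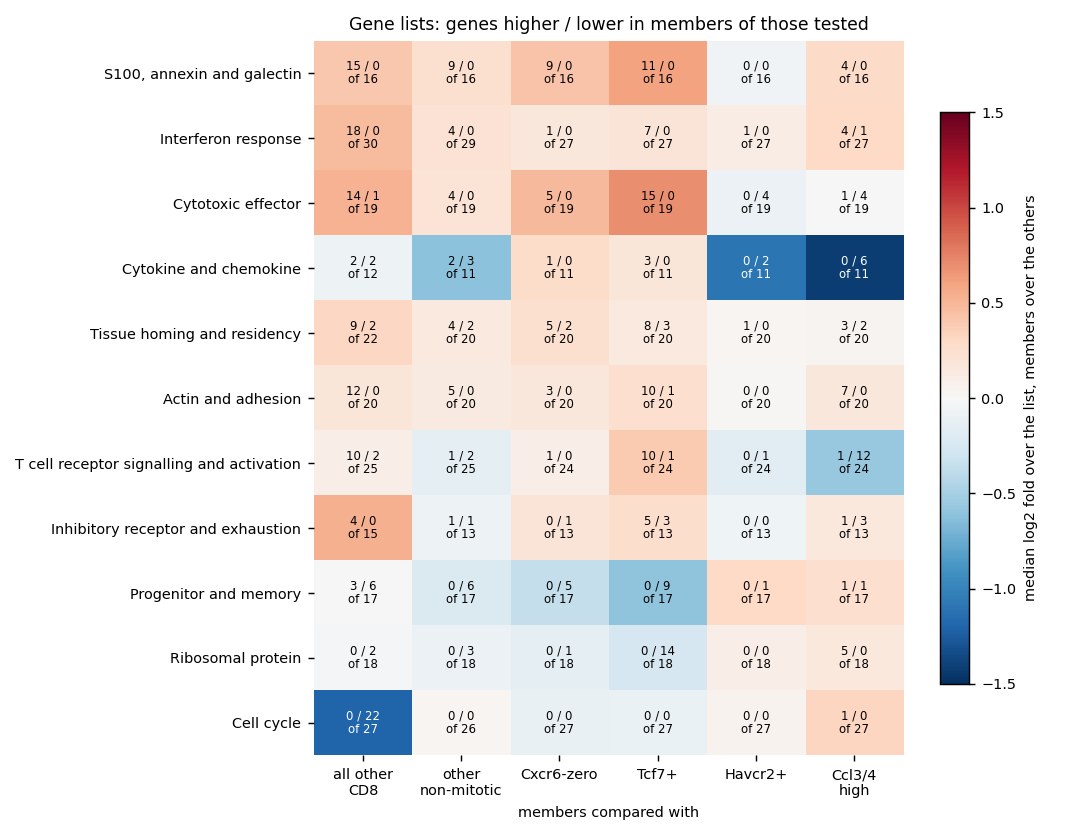
Median log2 fold change of 11 gene lists in the Cxcr6+ Ccl-low cells (members) over each class compared (colour), with the number of genes higher and lower of those tested in each cell. The S100, annexin and galectin list is at 0.43 against the Cxcr6-zero cells and at -0.05 against the Havcr2+ cells, and the cytokine list is lowest, at -1.43, against the Ccl-high cells.

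The share of Cxcr6+ Ccl-low cells among CD8 T cells was low in WT untreated and higher in the other libraries. It was 21.04% in KO anti-PD-L1 (exact Clopper-Pearson 95% interval 18.6% to 23.7%, 214 of 1017 cells), 24.5% in WT anti-PD-L1 (22.2% to 27.0%, 318 of 1297), 18.1% in KO untreated (16.2% to 20.1%, 277 of 1531) and 5.53% in WT untreated (4.25% to 7.06%, 60 of 1085). The interval of WT untreated lies below all others. It covers counting error only, and with 1 library per group the difference between groups was not tested. After each cell was thinned to 2200 UMIs and gated again, leaving out 0, 21, 10 and 60 shallower cells in that library order, the shares were 26.6%, 27.7%, 16.9% and 5.85%. Among non-mitotic CD8 T cells the shares as counted were 31.9%, 32.9%, 30.9% and 11.9%, and after thinning 30.8%, 31.4%, 21.3% and 8.50%. KO untreated was thus close to the anti-PD-L1 libraries as counted and below them after thinning. Gating again also changed which cells counted as non-mitotic. In the same library order they numbered 670, 967, 896 and 503 as counted, and 876, 1128, 1209 and 706 after thinning. The shares before and after thinning are therefore of unlike sets of cells. The Cxcr6-zero cells of the same gate numbered 89 in KO anti-PD-L1, 179 in WT anti-PD-L1, 299 in KO untreated and 243 in WT untreated. Within that gate, cells with a Cxcr6 UMI therefore outnumbered those without in the anti-PD-L1 libraries and were outnumbered in the untreated ones, though narrowly in KO untreated (277 against 299). Depth ran the same way. The median UMI counts of the Cxcr6+ Ccl-low cells were 5421.5 in KO and 4425 in WT with antibody, and 3463 and 2968.5 without. The part of depth in this split was not tested.

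**Figure D5:**
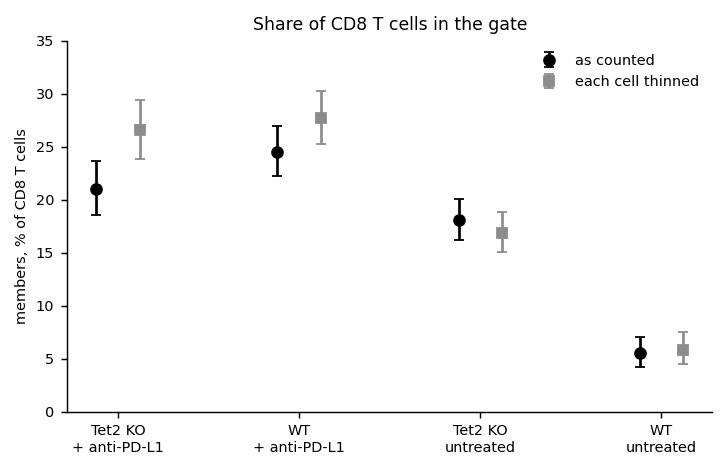
Share of Cxcr6+ Ccl-low cells among CD8 T cells by library in percent, as counted and after thinning to 2200 UMIs per cell, with exact 95% binomial intervals. WT untreated is at 5.53% as counted and the other 3 libraries are at 18.1% to 24.5%.

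Levels inside the class were compared between libraries as ratios of CPM with exact conditional binomial 95% intervals, with no test of groups, since each group is 1 library. The 2375 genes that averaged 50 CPM or more and were not used by the gate were counted, and a difference was counted from 1.5-fold. KO over WT differed widely without antibody and little with it: untreated, 289 genes (12.2%) were higher in KO and 337 (14.2%) lower, and with anti-PD-L1, 66 (2.78%) were higher and 36 (1.52%) lower. Anti-PD-L1 over untreated gave 342 higher (14.4%) and 600 lower (25.3%) in WT, and 91 (3.83%) and 47 (1.98%) in KO. The comparisons with the higher counts both contain WT untreated, the sum of 60 cells. In KO over WT untreated the interval excluded no difference for 174 of the 289 higher genes and 232 of the 337 lower. In anti-PD-L1 over untreated WT it did so for 259 of the 342 and 465 of the 600. For KO over WT with anti-PD-L1 it did so for all 66 and all 36, and for anti-PD-L1 over untreated KO for 90 of 91 and 46 of 47. The median over all genes was -0.11 and 0.07 on the log2 scale for KO over WT untreated and with anti-PD-L1, and -0.19 and -0.02 for anti-PD-L1 over untreated in WT and KO. With TMM factors in place of library totals the medians were 0.12, -0.03, 0.13 and -0.05, and the counts became 450 higher and 143 lower for KO over WT untreated, 38 and 66 for KO over WT with anti-PD-L1, and 566 and 278 for anti-PD-L1 over untreated in WT. The balance of higher and lower genes in these comparisons thus turned with the scaling.

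Sets of genes that are higher or lower in WT untreated can still be named, as their medians lie well beyond these shifts. Of 19 activation genes measured, 15 were higher and 1 lower in KO over WT untreated (median log2 ratio 1.35), 15 were higher and 2 lower in anti-PD-L1 over untreated WT (1.40), 3 were higher and 1 lower in anti-PD-L1 over untreated KO (0.25), and none passed 1.5-fold in KO over WT with anti-PD-L1 (0.02). Nr4a1, an immediate target of T cell receptor signals, had 215.1 CPM in KO anti-PD-L1, 248.8 in WT anti-PD-L1, 168.1 in KO untreated and 10.6 in WT untreated. WT untreated stood apart from the other 3 libraries, with a log2 ratio of KO over WT untreated of 3.99 (2.11 to 7.04). Dusp5 had 298.0, 340.8, 196.3 and 31.8 CPM and Ccr7 418.5, 442.5, 440.5 and 116.6 in the same order. Dusp5 was lowest in WT untreated outside the class too, with 167.6, 130.2, 130.7 and 24.6 CPM in the Cxcr6-zero cells. Its drop there was thus not particular to the Cxcr6+ Ccl-low cells. Gzma had 733.3, 957.6, 540.0 and 95.4, while Gzmb in WT untreated, at 2729 CPM, was within the 2088 to 3086 CPM of the other 3 libraries. In the Havcr2+ cells Gzma had 1821, 1849, 2368 and 229.6 CPM, again lowest in WT untreated.

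Genes of division showed the reverse. Of 21 measured, 18 were lower and none higher in KO over WT untreated (median -0.94), 21 were lower in anti-PD-L1 over untreated WT (-1.62), 3 were lower in anti-PD-L1 over untreated KO (-0.31), and 5 were higher in KO over WT with anti-PD-L1 (0.30). Rrm2, a subunit of the enzyme that makes deoxyribonucleotides, had 26.8 CPM in KO anti-PD-L1, 20.7 in WT anti-PD-L1, 42.3 in KO untreated and 169.5 in WT untreated. Even the gate genes of mitosis, capped at 3 UMIs per cell, were highest there: Birc5 had 25.1, 17.5, 38.5 and 169.5 CPM. The other non-mitotic classes of WT untreated had 117.4 to 154.0 CPM of Birc5. The part of residual dividing cells in the differences between libraries was not tested.

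Few genes passed 1.5-fold in the same direction in both genotype comparisons, 7 higher (2.42% of the 289 untreated and 10.6% of the 66 with antibody) and 10 lower (2.97% of 337 and 27.8% of 36). Over all 2375 genes, 2.78% were higher and 1.52% lower with antibody, and 12.2% were higher and 14.2% lower untreated. The 7 shared higher genes were thus no more than these shares over all genes would give. Of the higher ones, Hba-a1, Hbb-bs and Hba-a2 are globin genes, and 1 cell held 2087 of the 2107 globin UMIs of KO anti-PD-L1 and 1 held 1146 of 1171 in KO untreated. Itm2a, a T cell membrane protein induced on activation, had 147.3 CPM in KO anti-PD-L1 and 144.6 in KO untreated, against 89.4 in WT anti-PD-L1 and 42.4 in WT untreated. The log2 ratio was 0.72 (0.39 to 1.05) with antibody and 1.77 (0.76 to 3.01) without, beside -0.12 and 0.20 in the other CD8 T cells. The other 3 were Epn1, Gm12840 and Gm10036. Of the lower ones, the metallothionein genes Mt1 and Mt2, which bind zinc, were steady: Mt1 had 368.3 CPM in KO anti-PD-L1 and 371.0 in KO untreated, against 721.7 in WT anti-PD-L1 and 736.4 in WT untreated. The log2 ratios of anti-PD-L1 over untreated were -0.01 in KO and -0.03 in WT, and 1 cell of WT anti-PD-L1 held 131 of the 1114 Mt1 UMIs there. The other CD8 T cells had log2 ratios of KO over WT of -0.67 with anti-PD-L1 and -0.80 untreated for Mt1.

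Gzmc, a granzyme of strongly stimulated T cells, had 13.4 CPM in KO anti-PD-L1 and 11.3 in KO untreated, against 95.2 in WT anti-PD-L1 and 317.9 in WT untreated. The ratio was the lowest of the named genes, at -2.83 (-3.67 to -2.08) with antibody and -4.82 (-5.85 to -3.91) without, but in WT anti-PD-L1 1 cell held 84 of the 147 Gzmc UMIs. Fcer1g, an adaptor chain of Fc and NK receptors, had 35.2 and 22.5 CPM in the KO libraries, against 71.9 and 127.2 in the WT libraries, each pair with antibody first. Rps29, Atp5k, Serpine2 and Gm10263 were the others named. Rps29 had 3500 CPM in KO anti-PD-L1, 5971 in WT anti-PD-L1, 1782 in KO untreated and 3672 in WT untreated, with log2 ratios of KO over WT of -0.77 with antibody and -1.04 without, beside -0.84 and -0.96 in the other CD8 T cells.

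More genes were shared by the treatment comparisons, 46 higher with anti-PD-L1 in both genotypes (13.5% of the 342 in WT and 50.6% of the 91 in KO) and 29 lower (4.83% of 600 and 61.7% of 47). Over all genes counted, 3.83% were higher and 1.98% lower in KO, and 14.4% were higher and 25.3% lower in WT. Isg15, a proposed marker, was among the higher ones, with 100.4 CPM in KO anti-PD-L1 and 48.8 in KO untreated, and 71.3 in WT anti-PD-L1 and 21.2 in WT untreated. Its log2 ratio was 1.04 (0.56 to 1.54) in KO and 1.75 (0.35 to 3.65) in WT, and in the other CD8 T cells 1.21 and 1.90. Rps27rt, Rps28, Gm12840, Serpine2 and Gem, a small GTPase induced in activated T cells, were further higher genes named. Lower with anti-PD-L1 were Igfbp7, Cd74, Fh1, Fabp5, Lig1, Asf1b, Trmt6 and Myc. Lig1, the replicative DNA ligase, had 39.3 and 73.3 CPM in KO with and without antibody, and 49.2 and 153.6 in WT. Cd74, the invariant chain of MHC class II, had 17.6 and 197.2 in KO with and without antibody, and 19.4 and 53.0 in WT, and 1 cell of KO untreated held 139 Cd74 UMIs. Counts of ribosomal and predicted genes such as Rps27rt, Gm10036 and Gm10263, of the globin pair Hba-a1 and Hba-a2, and of other close paralogs are uncertain where reads match several copies.

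The other proposed markers differed in size and direction between libraries. Plac8 had log2 ratios of 0.35 (0.24 to 0.46) for anti-PD-L1 over untreated in KO and 0.53 (0.35 to 0.72) in WT, and of -0.59 (-0.68 to -0.50) for KO over WT with antibody, past 1.5-fold, and -0.41 (-0.61 to -0.21) without. Ccr2 had log2 ratios of 0.44 (0.14 to 0.75) for anti-PD-L1 over untreated in KO and 1.38 (0.58 to 2.31) in WT, and of 0.08 (-0.18 to 0.34) for KO over WT with antibody and 1.02 (0.20 to 1.97) without. S100a4 stood at 0.33 (0.16 to 0.51), 1.26 (0.87 to 1.68), -0.37 (-0.51 to -0.22) and 0.56 (0.16 to 0.99) for the same ratios. With antibody, Plac8 and S100a4 were thus lower in KO than in WT, while the interval of Ccr2 included no difference. In the other CD8 T cells the treatment ratios of S100a4 were 1.29 in KO and 1.87 in WT. Of 15 S100, annexin and galectin genes, 4 were lower by 1.5-fold in KO over WT with anti-PD-L1, namely Anxa1 (-1.21), Capg (-0.73), Lgals3 (-0.69) and Crip1 (-0.63), and none was higher.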

How the data were processed

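Single-cell libraries of CD8+ tumour-infiltrating cells were made with 10x Chromium 3′ V2 chemistry, per the labels' protocols, from 4 groups of 1 library each. The authors deposited a table of UMI counts per cell and gene for each library. The genome was mm10, per the submitters' processing notes; which tool counted UMIs and called cells is not stated there. Each deposited count table lists barcodes in 2 spellings with other counts, and the spelling with 2 hyphens was used. Cells with at least 500 genes and at most 10% mitochondrial UMIs were kept. Gene names altered between the tables were left out (27916 genes used; at most 0.00289% of UMIs left out), among them possible OT-I receptor segments. No doublet caller was run.

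The members and gene lists were chosen with earlier results of these data known. UMIs were summed per library and class and tested with edgeR 4.0.16 (R 4.3.3; TMM, filterByExpr, quasi-likelihood test, library as a block, Benjamini-Hochberg adjustment over all genes). The library is a true pair, since the sums compared come from the same cells' library. The fit of the gated cells against all other CD8 T cells had 3 residual degrees of freedom and the fit of 6 classes had 15. With the library as a block, differences in level between libraries are taken out. P-values then measure how much the difference between classes varies over libraries of different conditions. In the fit of 6 classes this spread is pooled over all classes. SE is the log2 fold change over the root of F. Named genes were the 12 highest and 12 lowest against all other CD8 T cells and the 8 and 8 against each class, by log2 fold change among called genes with a mean of 50 CPM or more, the same direction in all 4 libraries, UMIs in at least 40 CD8 T cells and no use in the gate. Between libraries they were the first 8 in each direction that were 1.5-fold apart in both comparisons of a kind, ranked by the smaller ratio. Genes outside that rule are members of the lists or were chosen after their values were seen. Libraries were compared by CPM without a test; intervals and floors cover counting error only. DESeq2 1.42.0 and the other alternatives are given in the closing section. The fits were also run on simulated counts, drawn at a higher dispersion than the common dispersion of the data. The simulated class effect was the same in every library, so that run cannot show how the fits treat effects that vary between libraries. Results of a few genes are not reported here.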

Additional observations from a re-analysis of the deposited data

Results flagged for a closer look

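In 8 results the ratio inside the Cxcr6+ Ccl-low cells ran in opposite directions in the 2 settings of the same contrast. With 1 library per group the difference between the settings was not tested. In KO over WT, Cks1b, a regulator of cyclin-dependent kinases, had a log2 ratio of -1.52 untreated and 0.67 with anti-PD-L1. Crtam had 2.29 untreated and -0.75 with anti-PD-L1, Klf2 had 1.00 and -1.36, and Pdcd4 had 0.74 and -0.80. In anti-PD-L1 over untreated, Ccl1 had a log2 ratio of 1.35 in WT and -1.33 in KO, Gm156 had -1.46 and 0.61, and Xcl1 had 1.00 and -0.69. The share of Cxcr6+ Ccl-low cells among CD8 T cells, KO minus WT, was 12.6 percentage points untreated and -3.48 with anti-PD-L1. Each of these rests on WT untreated, which holds 60 of the cells.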

How the results depend on the processing

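The library block had the greatest effect on counts of called genes: the fit with no replicate block gave 9 higher and 140 lower against all other CD8 T cells, 0 and 3 against Cxcr6-zero cells, 45 and 44 against Tcf7+ cells, 0 and 2 against Havcr2+ cells and 12 and 41 against Ccl-high cells; the cause was not tested. Leaving out 1 library gave 289 to 638 higher and 333 to 647 lower against all others, 4 to 61 and 4 to 47 against Cxcr6-zero, 144 to 278 and 120 to 280 against Tcf7+, 0 to 17 and 5 to 42 against Havcr2+, and 62 to 266 and 86 to 370 against Ccl-high cells. Against all others, thinned cells gave 150 and 173, DESeq2 309 and 326, and leaving out mitotic cells 89 and 98. Against Cxcr6-zero cells, library totals gave 56 lower, no filter 120 and 74, the first listing of barcodes 76 lower, thinned cells 142 and 98, and DESeq2 87 and 89. Against Havcr2+ cells, no filter gave 59 and 55, the first listing 2 and 6, thinned cells 0 and 6, cells with no macrophage or melanoma UMI 7 and 13, and DESeq2 46 and 42. The shares thinned were 26.55% in KO anti-PD-L1 and 27.74% in WT anti-PD-L1. Between libraries, a floor of 100 CPM gave 138 and 137 for KO over WT untreated, 23 and 14 with anti-PD-L1, 177 and 305 for anti-PD-L1 over untreated in WT and 36 and 9 in KO; TMM gave 450 and 143, 38 and 66, and 566 and 278 for the first 3; thinned cells gave 171 and 73 for KO over WT with anti-PD-L1 and 93 lower for anti-PD-L1 over untreated in KO.

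Of the named genes' alternatives, 1425 kept direction and side of the threshold, 220 lost the call, 14 gained it and 20 reversed. Without mitotic cells Cdk1 was at 0.0976 and Cdc20 at 0.2039. Against Havcr2+ cells, where it was not called, Ccr2 was at -0.0158 with library totals, -0.00394 with no replicate block, -0.21 in the first listing, -0.0562 without KO untreated and -0.0168 without WT untreated, and at 0.0498 at most without any 1 library; Plac8 was at -0.0202 thinned, and Isg15 at 0.1033 with no macrophage or melanoma UMI and, without 1 library each, at -0.1204 to 0.1755. The globin genes Hba-a1, Hbb-bs and Hba-a2, in KO over WT untreated, were at -1.09, -1.89 and -1.93 with no macrophage or melanoma UMI and at -1.26, -1.69 and -1.58 with at least 1000 genes and at most 5% mitochondrial UMIs; with anti-PD-L1, thinned, they were at -0.609, -1.87 and -0.609. Asf1b in anti-PD-L1 over untreated KO was at 0.1215 thinned. Depth limits WT untreated most.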
